A study of Mus musculus with 12 samples.

Results

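The 10 genes examined belong to the major histocompatibility complex (MHC) route of antigen presentation and were taken by name from a table of 54532 mouse genes. The class II set held 7 genes: H2-Aa and H2-Ab1, the chains of the I-A molecule; H2-Eb1, the beta chain of I-E; Cd74, the invariant chain; H2-DMa and H2-DMb1, the chains of the peptide exchange factor DM; and Ciita, the transactivator of class II genes. The class I set held 3 genes: the heavy chains H2-K1 and H2-D1, and B2m, the light chain they share.

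MHC class I molecules sit on nearly all nucleated cells and show peptides cut by the proteasome to cytotoxic T cells. Class II molecules are typical of dendritic cells, B cells and activated macrophages and show peptides of ingested proteins to helper T cells; the invariant chain holds their groove until DM exchanges it for peptide. Interferon gamma is the classical inducer of both, acting on class II genes through Ciita and on class I genes through Irf1 and the transactivator Nlrc5.

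Bulk RNA-seq was available for bone marrow mesenchymal stem cells (MSCs) of C57BL/6 mice aged 4 weeks, cultured to passage 3 and induced for 5 days. There were 12 libraries in 4 groups of 3: control and knockout cells, each in osteogenic or adipogenic medium. Control mice, called WT in the labels, were Chd7fl/fl, and knockout mice, called KO, were Prx1-cre;Chd7fl/fl, so the floxed allele of Chd7, which encodes a chromatin remodeller, was present in every group. Osteogenic medium contained ascorbic acid (50 µM), dexamethasone (10 nM) and β-glycerophosphate (10 mM), while adipogenic medium contained insulin (10 µg/ml), dexamethasone (1 µM) and isobutylmethylxanthine (0.5 µM). Prx1-cre is active in early limb mesenchyme, so the deletion is directed at mesenchymal cells and not at blood-derived cells that a marrow culture may still hold. The number of mice behind each library is not given.

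Chd7 itself was measured at 2.64, 2.67 and 2.77 FPKM (fragments per kilobase of gene, scaled for depth) in control libraries 1, 2 and 3 and at 2.03, 2.35 and 2.28 FPKM in libraries labelled knockout in osteogenic medium. Its adipogenic values were 2.26, 1.81 and 2.23 FPKM in control and 2.03, 2.35 and 2.48 FPKM in libraries labelled knockout. Differences are given on the scale of log2(FPKM + 1) and were tested with limma in one fit of all libraries, with p-values adjusted over the 12871 genes that reached 1 FPKM in at least 3 libraries, and a gene passed at an adjusted p under 0.05. For Chd7 the difference between genotypes was -0.20 (adjusted p = 0.160) in osteogenic and 0.09 (adjusted p = 0.428) in adipogenic medium. The level of the whole gene did not separate the genotypes in adipogenic medium, and genotypes are named by their labels throughout. In the paper Cre removes exon 2 of Chd7, which ends translation, and tissue staining is reported to show the deletion in MSCs. The paper also gives PCR genotyping, a Southern blot and western blots of CHD7 protein in isolated MSCs of both genotypes. The FPKM cover the whole gene and do not single out exon 2, so they do not measure the deletion. In adipogenic medium control library 2 stood apart from control libraries 1 and 3 (Pearson's r across genes 0.939 and 0.943, against 0.989 between 1 and 3), and library 1 labelled knockout stood apart from 2 and 3 to a lesser degree (r 0.980 and 0.981, against 0.992). No library was left out, and results that turn on these libraries are given with and without them.

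The cultures expressed mesenchymal and macrophage genes side by side. The 10 mesenchymal stromal markers summed to between 1273 and 1907 FPKM over the 12 libraries, with Thy1, one of their defining markers, at only 0.206 to 1.03 FPKM. The 12 macrophage markers summed to 13519 to 13997 FPKM in control and 15160 to 15543 FPKM in libraries labelled knockout in osteogenic medium. In adipogenic medium their sum was 18761, 9157 and 18802 FPKM in control libraries 1, 2 and 3 and 7350 to 8852 FPKM in libraries labelled knockout, and none of the 12 was at 0 in any library. Lyz2 made up most of these sums. Without it the sum was 4562 to 4664 FPKM in control and 4103 to 4294 FPKM in libraries labelled knockout in osteogenic medium, so that the order of the genotypes turned, and 4882, 3701 and 4390 FPKM in control libraries 1, 2 and 3 against 3506 to 3841 FPKM in libraries labelled knockout in adipogenic medium. The 7 dendritic cell markers summed to 8.92 to 9.48 FPKM in control and 14.4 to 14.9 FPKM in libraries labelled knockout in osteogenic medium, and to 3.69 to 8.25 FPKM and 4.49 to 5.31 FPKM in adipogenic medium. Only Itgax, which macrophages also express, and Batf3 reached the level needed for a test, and Flt3 did not exceed 0.00901 FPKM. The part of these cells in the class II values was not tested. B cell markers (5 genes) summed to 0.1196 to 1.06 FPKM, and the T cell genes Cd3e, Cd3d and Cd3g were listed at 0 in all 12 libraries. In bulk RNA, a change in the number of cells of one type and a change in the RNA per cell cannot be told apart.

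Upstream sequences are shown for a pair of class I genes whose levels moved together and for 2 class II genes that were scarcely expressed, because the regulators named above act there. Each run covers bases -150 to -11 from the first RefSeq start listed (GRCm38.p6), 5′ to 3′ on the strand of the gene. H2-K1 has 2 starts listed and the other genes 1, so positions in the H2-K1 run depend on that choice. Capitals mark every match to one of 5 motifs searched on both strands.
H2-K1: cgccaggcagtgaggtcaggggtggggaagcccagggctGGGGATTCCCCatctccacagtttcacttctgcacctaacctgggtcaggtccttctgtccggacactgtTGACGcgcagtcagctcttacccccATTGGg
B2m: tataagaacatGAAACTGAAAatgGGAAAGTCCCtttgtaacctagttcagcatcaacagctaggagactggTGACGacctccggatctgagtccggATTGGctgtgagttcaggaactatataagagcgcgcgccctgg
H2-Aa: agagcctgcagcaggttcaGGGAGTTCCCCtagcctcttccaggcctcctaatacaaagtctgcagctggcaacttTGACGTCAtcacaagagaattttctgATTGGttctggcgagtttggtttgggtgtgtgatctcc
H2-Eb1: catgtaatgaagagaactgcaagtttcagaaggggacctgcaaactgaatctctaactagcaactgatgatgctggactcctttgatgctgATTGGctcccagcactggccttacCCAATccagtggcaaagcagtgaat
The H2-K1 run lies at chr17:34000358-34000497 on the minus strand, the B2m run at chr2:122147537-122147676 on the plus strand, the H2-Aa run at chr17:34287834-34287973 on the minus strand and the H2-Eb1 run at chr17:34305717-34305856 on the plus strand.

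The motifs were CCAAT, the cyclic AMP response core TGACG, the gamma-activated site TTCNNNGAA, the kappaB element, and the interferon regulatory factor element, a pair of GAAA with any 2 bases between them. CCAAT, found in 33.8% of 32851 promoters of 250 bases, occurred in all 4 runs on at least 1 strand, and H2-Eb1 held 2 copies. This share and those below count 250 bases, more than the 140 of each run, so they overstate the share for stretches of that length. TGACG, found in 17.8% of promoters, occurred in H2-K1, B2m and H2-Aa, and the 2 matches of H2-Aa overlap each other. The kappaB element, found in 3.90%, occurred in the same 3 runs, at bases -111 to -101 in H2-K1 where matches on both strands overlap. The interferon regulatory factor element in this exact form, found in 2.98%, occurred only in B2m among the 4 runs, at bases -139 to -130. Looser forms of it were not searched, so its absence from the other runs covers this form only. TTCNNNGAA, found in 7.02%, occurred in none of the 4. A match describes letters only, and no binding was measured.

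The 10 genes ranged from 0.0110 to 2267 FPKM. In control cells in osteogenic medium B2m was the most abundant at 1091 ± 63.2 FPKM (SD, n = 3), followed by H2-D1 at 483 ± 24.2, H2-K1 at 230.0 ± 14.6, H2-DMb1 at 15.8 ± 1.15, H2-DMa at 9.22 ± 0.187, Cd74 at 1.75 ± 0.265, H2-Ab1 at 1.58 ± 0.277, H2-Eb1 at 0.405 ± 0.138, H2-Aa at 0.132 ± 0.0138 and Ciita at 0.0337 ± 0.0223 FPKM (SD, n = 3 for each). Among neighbours in this order only the libraries of Cd74 and H2-Ab1 overlapped. The same pair overlapped in both groups labelled knockout, where the order was the same in adipogenic medium and H2-Ab1 stood above Cd74 in osteogenic medium. In control cells in adipogenic medium Cd74 stood above H2-DMa, and the libraries of H2-D1 and H2-K1, of Cd74 and H2-DMa, and of H2-DMa and H2-Ab1 overlapped. H2-DMb1 was the most abundant class II transcript in every group, and the group means of both DM chains exceeded those of the I-A and I-E chains that DM acts on.

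**Figure D1:**
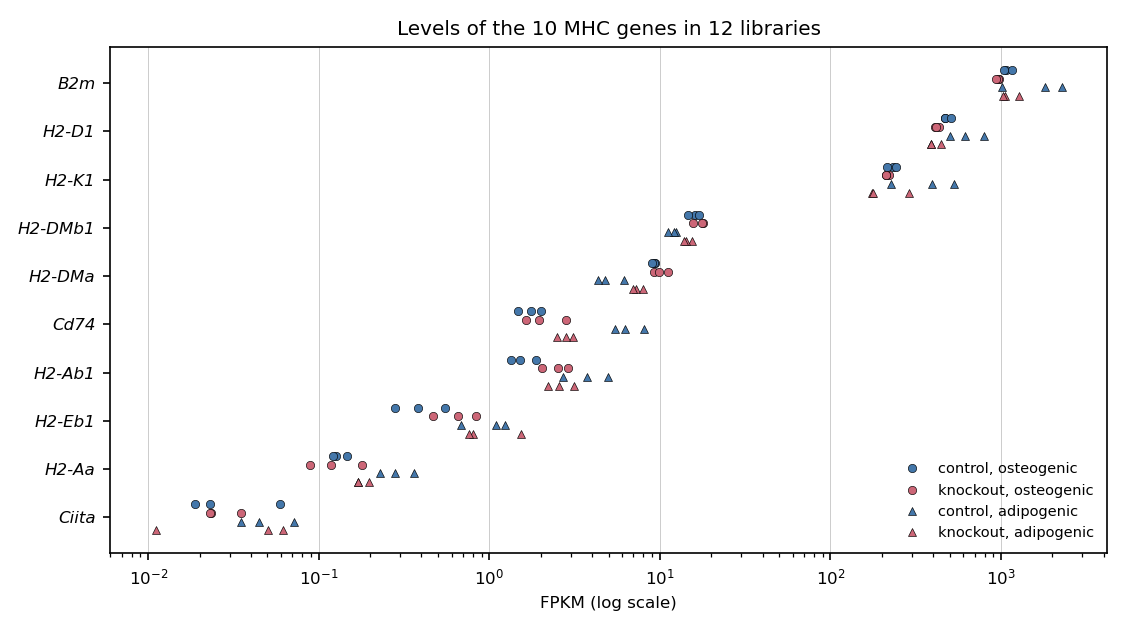
Level of each of the 10 MHC genes in each of the 12 libraries, as FPKM on a log axis; colours mark the genotype by label, circles osteogenic and triangles adipogenic medium. The 3 class I genes lie above 175 FPKM in every library and Ciita lies at or below 0.0712 FPKM.

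Genotypes were compared within each medium. In adipogenic medium the invariant chain Cd74 and the class I heavy chain H2-D1 were lower, and the DM chains higher, in libraries labelled knockout. H2-K1 was also lower, with an adjusted p of 0.049995 that stayed under 0.05 in 2 of the 12 fits that left out 1 library. In osteogenic medium no gene passed in the fit of all libraries. When only the osteogenic libraries were fitted, 3418 of all genes passed in place of 1170. H2-Ab1 (0.43, limma adjusted p = 0.0394) was then higher and H2-D1 (-0.20, adjusted p = 0.0151) and B2m (-0.19, adjusted p = 0.0238) lower in libraries labelled knockout. In the fit of all libraries the difference between the media passed for Cd74 and H2-Ab1 but not for the heavy chains or the DM chains. Without adipogenic control library 2 this difference also passed for H2-K1, H2-D1, B2m and H2-DMa. The genes that passed in adipogenic medium changed by 0.26 to 0.99 on the log2(FPKM + 1) scale. Of the 10 genes 8 reached the level needed for the test, and H2-Aa and Ciita did not.

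In osteogenic medium 0 of 8 genes passed between genotypes in the limma fit of all libraries, where 9.09% of all 12871 genes tested did. Limma voom on recovered fragments also called 0. At an unadjusted p under 0.05 there was 1, H2-Ab1. In adipogenic medium 2 of 8 were higher (H2-DMa and H2-DMb1) and 3 lower (Cd74, H2-K1 and H2-D1) in libraries labelled knockout, against 16.7% and 16.5% of all genes, and 6 of 8 had an unadjusted p under 0.05. The median difference of the 8 was -0.45, and that of all genes -0.01. The effect of genotype differed between media for 2 of 8, both in the lower direction (Cd74 and H2-Ab1), and for 0 in the higher, against 9.58% and 10.9% of all genes. At an unadjusted p under 0.05 this interaction was reached by 3 of 8, and voom called 1, also in the lower direction. In control cells 2 of 8 rose from osteogenic to adipogenic medium (Cd74 and H2-Ab1) and 2 fell (H2-DMa and H2-DMb1). The shares of all genes were 10.5% and 12.3% at an adjusted p under 0.05. All 8 had an unadjusted p under 0.05. In cells labelled knockout 0 rose and 2 fell (again the DM chains), against 13.9% and 14.0%. For the last comparison 2 of 8 had an unadjusted p under 0.05, and voom called 0 higher and 1 lower. Groups without overlap were seen for 4 of the 8 genes between genotypes in adipogenic medium, where 38.6% of all genes showed this, and for 3 in osteogenic medium, where 44.3% did. The shares of all genes beside the limma calls are for an adjusted p under 0.05. None is given for an unadjusted p, so the unadjusted counts cannot be set against all genes. The media comparisons share their libraries with the comparisons of genotypes.

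**Figure D2:**
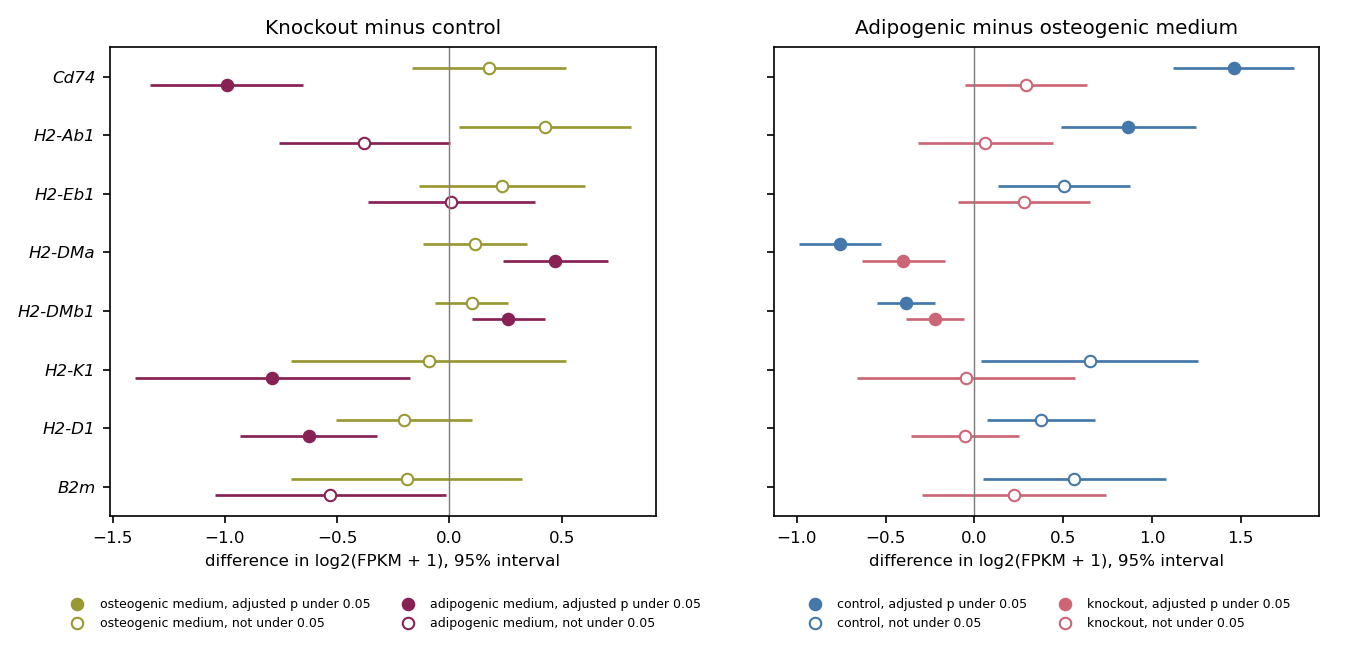
Differences in log2(FPKM + 1) with 95% intervals for the 8 genes tested, knockout (by label) minus control at left and adipogenic minus osteogenic medium at right; filled points have an adjusted p under 0.05. In adipogenic medium Cd74 (-0.99), H2-K1 (-0.79) and H2-D1 (-0.63) lie below 0 and H2-DMa (0.47) and H2-DMb1 (0.26) above.

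The class II genes were examined for the 3 roles of regulator, chaperone and chains. Ciita (ENSMUSG00000022504; chr16:10480059-10528418, GENCODE M21 on GRCm38) was between 0.0110 and 0.0712 FPKM in all 12 libraries, and the 4 groups overlapped. Over 1 kilobase of exon 3 fragments make 0.143 to 0.185 FPKM at the depth of these libraries, and the exons of Ciita, 9535 bases in all, add up to 14 to 25 fragments per group. Part of these exons overlaps Dexi on the opposite strand, which reached 4.22 FPKM, and the use of strand in counting is not given, so these fragments cannot be told apart from those of Dexi. Exact two-sided permutation tests on log2(FPKM + 1) gave p = 0.9 and p = 0.7 for the genotypes in osteogenic and adipogenic medium and p = 0.4 for the media in either genotype, where the smallest p for 3 against 3 libraries is 0.1.

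Cd74 (ENSMUSG00000024610; chr18:60803848-60812652) encodes the invariant chain. Among the class II genes tested it had the largest differences between genotypes in adipogenic medium and between media in control cells. Osteogenic libraries held 1.76, 1.48 and 2.01 FPKM in control and 2.80, 1.96 and 1.64 FPKM in libraries labelled knockout. Adipogenic levels were 8.07, 5.49 and 6.26 FPKM in control and 3.10, 2.48 and 2.80 FPKM in libraries labelled knockout. All 3 adipogenic control libraries, library 2 included, lay above the other 9 libraries, while the genotypes overlapped in osteogenic medium. The pseudocount of 1 FPKM makes the log2 scale understate the change of a gene at this level. On it Cd74 fell by 0.99 (standard error 0.154, limma adjusted p = 0.00104) in libraries labelled knockout in adipogenic medium and differed by 0.18 (95% interval -0.17 to 0.52, adjusted p = 0.559) in osteogenic medium. These effects differed between the media by -1.17 (95% interval -1.65 to -0.69, limma interaction, adjusted p = 0.00480). Cd74 rose by 1.46 (standard error 0.154, adjusted p = 0.000394) from osteogenic to adipogenic medium in control cells, against 0.29 (95% interval -0.05 to 0.63, adjusted p = 0.193) in cells labelled knockout. The fall, the interaction and the rise each held an adjusted p under 0.05 in all 12 fits that left out 1 library.

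H2-Ab1 (ENSMUSG00000073421; chr17:34257689-34269419), the I-A beta chain, was at 1.52, 1.89 and 1.35 FPKM in control and at 2.89, 2.03 and 2.52 FPKM in libraries labelled knockout in osteogenic medium. Its adipogenic levels were 4.94, 2.69 and 3.73 FPKM in control and 3.12, 2.20 and 2.57 FPKM in libraries labelled knockout. The libraries labelled knockout were all above the controls in osteogenic medium, and the genotypes overlapped in adipogenic medium. In the fit of all libraries neither difference passed. The differences were 0.43 (95% interval 0.04 to 0.81, limma adjusted p = 0.165) in osteogenic and -0.38 (95% interval -0.76 to 0.00, adjusted p = 0.115) in adipogenic medium. They differed from each other by -0.80 (95% interval -1.34 to -0.26, limma interaction, adjusted p = 0.0415). This interaction passed in 3 of the 12 fits that left out 1 library (adjusted p 0.00352 to 0.0965), namely without library 2 labelled knockout in osteogenic medium, adipogenic control library 2 or library 1 labelled knockout in adipogenic medium. Without adipogenic control library 2 the difference of H2-Ab1 in that medium was -0.55 (adjusted p = 0.0117). H2-Ab1 rose by 0.87 (standard error 0.172, adjusted p = 0.00800) from osteogenic to adipogenic medium in control cells and differed by 0.06 (95% interval -0.32 to 0.44, adjusted p = 0.823) in cells labelled knockout.

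H2-Aa (ENSMUSG00000036594; chr17:34282744-34287823), the I-A alpha chain, did not reach 1 FPKM in any library and was not tested with limma. It was at 0.147, 0.127 and 0.121 FPKM in control and at 0.178, 0.0885 and 0.117 FPKM in libraries labelled knockout in osteogenic medium, and at 0.227, 0.280 and 0.362 FPKM against 0.170, 0.170 and 0.197 FPKM in adipogenic medium. The 3 adipogenic control libraries lay above the other 9 libraries, as they did for Cd74. The exact two-sided permutation test gave p = 0.1, the smallest it can give, for the genotypes in adipogenic medium and for the media in control cells. H2-Eb1 (ENSMUSG00000060586; chr17:34305867-34316674), the I-E beta chain, ranged from 0.279 to 0.835 FPKM in osteogenic and from 0.686 to 1.53 FPKM in adipogenic medium, and the genotypes overlapped in both. Its differences between genotypes were 0.23 (limma adjusted p = 0.460) and 0.01 (adjusted p = 0.976). From osteogenic to adipogenic medium it differed by 0.51 (adjusted p = 0.0524) in control cells, without overlap of the groups. Without adipogenic control library 2 this difference was 0.63 (adjusted p = 0.0131). Its partner, the I-E alpha chain gene (H2-Ea-ps in the annotation), was listed at 0 in all 12 libraries, and C57BL/6 mice carry an inactive allele of it.

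In adipogenic medium the DM chains differed between genotypes in the direction opposite to Cd74. H2-DMa (ENSMUSG00000037649; chr17:34119541-34139101) was at 9.41, 9.21 and 9.03 FPKM in control and at 11.2, 9.20 and 9.84 FPKM in libraries labelled knockout in osteogenic medium. The adipogenic libraries held 4.75, 6.17 and 4.36 FPKM in control and 7.27, 7.98 and 6.93 FPKM in libraries labelled knockout. All 6 adipogenic libraries lay below the 6 osteogenic ones, and in adipogenic medium those labelled knockout lay above the controls. H2-DMb1 (ENSMUSG00000079547; chr17:34153072-34160230) was at 15.97, 14.6 and 16.9 FPKM in control and at 17.9, 17.7 and 15.6 FPKM in libraries labelled knockout in osteogenic medium. For adipogenic libraries the levels were 12.5, 12.1 and 11.1 FPKM in control and 15.5, 14.1 and 13.8 FPKM in libraries labelled knockout. Its groups were ordered like those of H2-DMa, again without overlap in adipogenic medium.

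In adipogenic medium H2-DMa rose by 0.47 (standard error 0.105, adjusted p = 0.00731) and H2-DMb1 by 0.26 (standard error 0.0730, adjusted p = 0.0205) in libraries labelled knockout, and the latter lost its call without adipogenic control library 3 (adjusted p = 0.0755) or library 1 labelled knockout (adjusted p = 0.0663). From osteogenic to adipogenic medium H2-DMa fell by 0.76 (adjusted p = 0.00146) and H2-DMb1 by 0.38 (adjusted p = 0.00690) in control cells. In cells labelled knockout they fell by 0.40 (adjusted p = 0.0177) and 0.22 (adjusted p = 0.0464), and these 2 calls were lost in 3 and in 6 of the 12 fits that left out 1 library. For H2-DMa these were the fits without library 1 labelled knockout in osteogenic medium (adjusted p = 0.0681) and without library 1 (adjusted p = 0.0507) or 3 (adjusted p = 0.0665) labelled knockout in adipogenic medium, and for H2-DMb1 those without osteogenic control library 1, libraries 1 or 2 labelled knockout in osteogenic medium, adipogenic control library 1, or libraries 2 or 3 labelled knockout in adipogenic medium (adjusted p 0.0509 to 0.146). With all libraries the DM effects of genotype did not pass a test of their difference between media (0.36, adjusted p = 0.117 for H2-DMa; 0.16, adjusted p = 0.289 for H2-DMb1). Without adipogenic control library 2 the limma interaction of H2-DMa was 0.48 (adjusted p = 0.00494). That of H2-DMb1 passed in 0 of the 12 fits that left out 1 library. Exons of H2-DMa overlap Brd2, which reached 46.4 FPKM, on the opposite strand, and 13.7% of the windows of 100 bases of the H2-DMb1 transcript also occur in H2-DMb2, so the counts of both depend on how shared fragments were assigned. The part of Brd2 and H2-DMb2 fragments in these values was not tested.

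**Figure D3:**
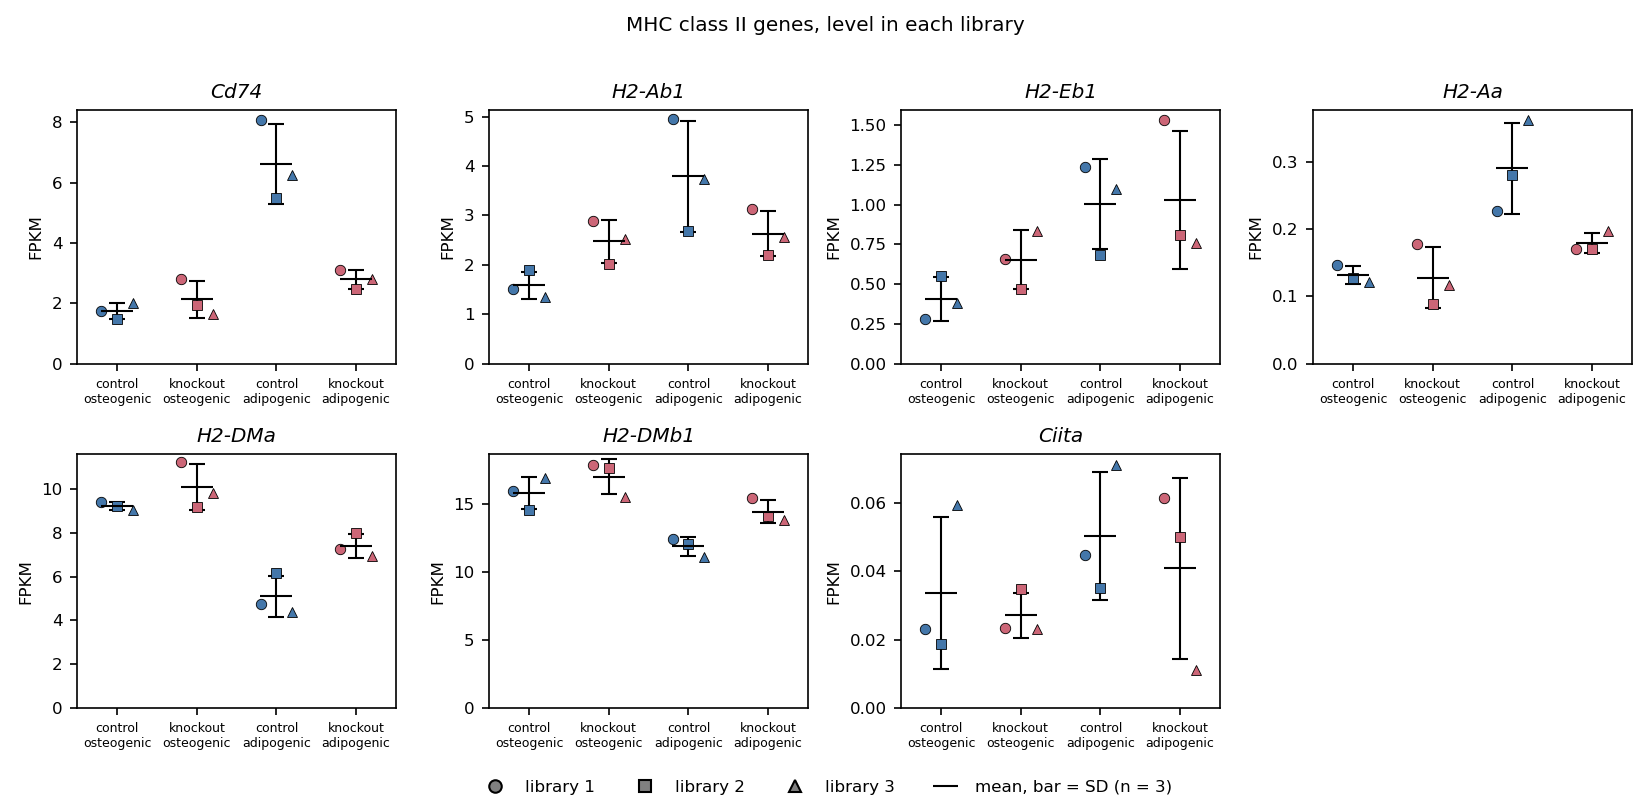
FPKM of the 7 class II genes in each library (1 circle, 2 square, 3 triangle), with control libraries blue and libraries labelled knockout red; horizontal bars are group means and vertical bars SD (n = 3). Cd74 is highest in the 3 adipogenic control libraries (5.49 to 8.07 FPKM), while H2-DMa is lowest there (4.36 to 6.17 FPKM).

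The proportions within the class II set differed between groups. There were 9.14 ± 0.737 H2-DMb1 transcripts per length for each of Cd74 (ratio of FPKM, SD, n = 3) in control and 8.31 ± 1.69 in libraries labelled knockout in osteogenic medium. In adipogenic medium the ratio was 1.84 ± 0.335 in control and 5.21 ± 0.424 in libraries labelled knockout, and each adipogenic group lay apart from the 3 others. The ratio of Cd74 to H2-Ab1 was 1.78 ± 0.226 in adipogenic control libraries and between 0.650 and 1.49 in the other 9. The sum of the 6 class II genes other than Ciita, which DM dominates, was 28.9 ± 0.976 and 32.5 ± 2.74 FPKM in osteogenic and 28.7 ± 2.61 and 28.5 ± 1.89 FPKM in adipogenic medium for control and labelled knockout (SD, n = 3). Per 1000 FPKM of the 12 macrophage markers this sum was 2.10 ± 0.0903, 2.12 ± 0.150, 2.04 ± 0.837 and 3.61 ± 0.161 in the same order, and the 3 adipogenic control libraries ranged from 1.43 to 2.99. With Lyz2, the most abundant macrophage marker, left out of the sum, it was 6.26 ± 0.218, 7.74 ± 0.487, 6.68 ± 0.655 and 7.84 ± 0.195 per 1000 FPKM.

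The class I genes were above every class II gene in every library and varied most within the adipogenic control group. H2-K1 (ENSMUSG00000061232; chr17:33996017-34000347) was at 234, 214 and 242 FPKM in control and at 221, 213 and 213 FPKM in libraries labelled knockout in osteogenic medium. Levels in adipogenic medium were 531, 226 and 392 FPKM in control and 289.7, 175 and 179 FPKM in libraries labelled knockout. Control libraries 1 and 3 were high, and control library 2 lay within the range of the libraries labelled knockout.

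H2-D1 (ENSMUSG00000073411; chr17:35262730-35267499) was at 472, 467 and 511 FPKM in control and at 433, 409.5 and 415 FPKM in libraries labelled knockout in osteogenic medium, and at 794, 499 and 619 FPKM against 444, 386 and 387 FPKM in adipogenic medium. Its libraries labelled knockout lay below the controls in both media. B2m (ENSMUSG00000060802; chr2:122147686-122153083) was at 1068, 1042 and 1162 FPKM in control and at 968, 963 and 932 FPKM in libraries labelled knockout in osteogenic medium, and at 2267, 1013 and 1816 FPKM against 1273, 1059.6 and 1026 FPKM in adipogenic medium. Like H2-K1, B2m was high in adipogenic control libraries 1 and 3 and not in control library 2, which was the lowest of the 6 adipogenic libraries. The sum of the 3 genes was 3592, 1737 and 2826 FPKM in these controls and 2006, 1621 and 1591 FPKM in libraries labelled knockout.

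**Figure D4:**
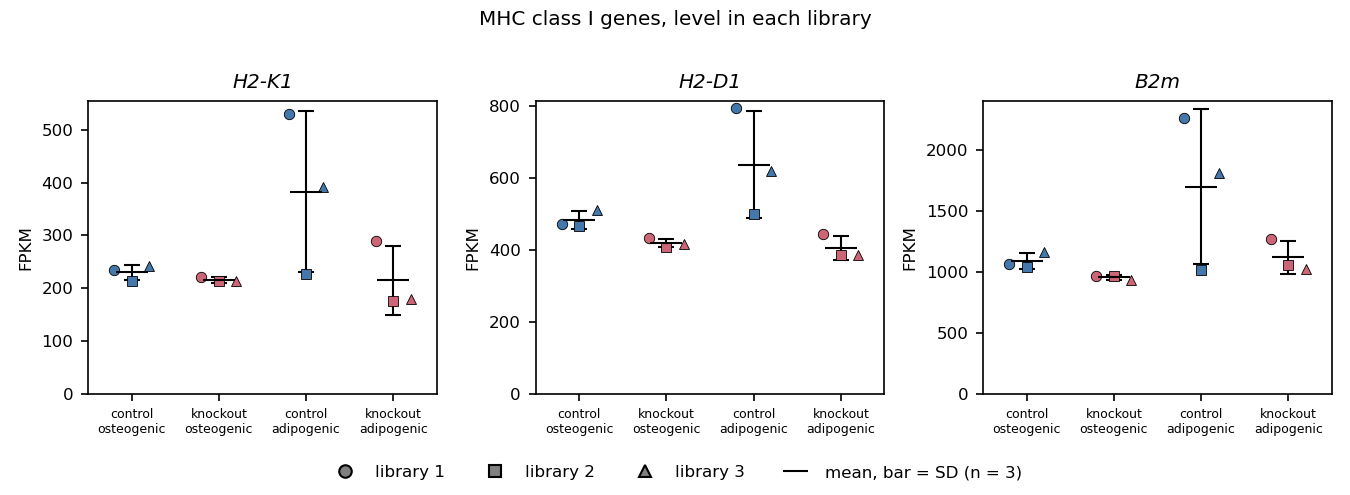
FPKM of the 3 class I genes in each library (1 circle, 2 square, 3 triangle), with control libraries blue and libraries labelled knockout red; horizontal bars are group means and vertical bars SD (n = 3). In adipogenic medium control libraries 1 and 3 lie above all other libraries for H2-K1 (392 and 531 FPKM) and B2m (1816 and 2267 FPKM).

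In adipogenic medium H2-D1 fell by 0.63 (standard error 0.136, limma adjusted p = 0.00658) in libraries labelled knockout, a call that held in all 12 fits that left out 1 library. H2-K1 fell by 0.79 (standard error 0.275, adjusted p = 0.049995, just under the threshold), and this call held in 2 of those 12 fits, the ones without adipogenic control library 2 or without library 1 labelled knockout. B2m differed by -0.53 (95% interval -1.05 to -0.01, adjusted p = 0.104). Without adipogenic control library 2 the difference of B2m was -0.86 (adjusted p = 0.000119). In osteogenic medium H2-D1 differed by -0.20 and B2m by -0.19, which passed only when the osteogenic libraries were fitted alone. With all libraries none of the 3 passed a test of the difference between media (H2-K1 -0.70, adjusted p = 0.231; H2-D1 -0.42, adjusted p = 0.148; B2m -0.34, adjusted p = 0.493). Without adipogenic control library 2 all 3 passed this limma interaction: H2-K1 -1.03 (adjusted p = 0.0120), H2-D1 -0.59 (adjusted p = 0.00614) and B2m -0.67 (adjusted p = 0.00449). In control cells they differed by 0.65, 0.37 and 0.56 between adipogenic and osteogenic medium (adjusted p 0.0734 to 0.112), and without adipogenic control library 2 by 0.99, 0.54 and 0.90 (adjusted p 0.00265, 0.00155 and 0.000109).

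The heavy chains did not keep one proportion. The ratio of H2-D1 to H2-K1 was 1.93 to 2.21 in 9 libraries, and 1.496 and 1.58 in adipogenic control libraries 1 and 3 and 1.53 in library 1 labelled knockout in adipogenic medium. The 3 libraries with a low ratio were also the 3 highest for B2m. Of the windows of 100 bases of the H2-D1 transcript 4.64% also occur in other class I genes, and none of those of H2-K1 or B2m did. The FPKM hold no alleles, so reads lost to a haplotype that differs from the reference could not be examined. GRCm38 is the C57BL/6J genome and the mice are labelled C57BL/6.

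The counts of MHC genes that passed depend on the libraries and the scaling. Without adipogenic control library 2 and library 1 labelled knockout, libraries labelled knockout had 2 of the 8 genes higher and 5 lower in adipogenic medium, where 25.3% and 26.7% of all genes then passed, and the lower ones included H2-K1 (-1.36), B2m (-0.96) and H2-Ab1 (-0.65). When only the 6 adipogenic libraries were fitted, Cd74 alone kept its call (adjusted p = 0.0131), and H2-D1 (adjusted p = 0.0708), H2-DMa (adjusted p = 0.0600), H2-DMb1 (adjusted p = 0.0647) and H2-K1 (adjusted p = 0.186) lost theirs. Scaled to one sum of FPKM per library, the calls over all genes in adipogenic medium were 3252 higher and 900 lower in place of 2153 and 2123, and the median of all genes shifted by 0.15. On that scale Cd74 (-0.84), H2-D1 (-0.44), H2-DMa (0.63) and H2-DMb1 (0.44) passed with the same sign, H2-K1 was at -0.60 (adjusted p = 0.0741), and the falls of the DM chains between media in cells labelled knockout did not pass (adjusted p = 0.143 and 0.315). In control cells the between-media calls on that scale were 647 higher and 1458 lower in place of 1354 and 1581, in cells labelled knockout 1697 and 897 in place of 1785 and 1807, and for the interaction 1716 and 564 in place of 1397 and 1233.

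Other genes of the class I route fell with the heavy chains in adipogenic medium. Of 24 genes listed for peptide supply, loading and the nonclassical class I molecules, 23 were tested, and 12 were lower and 1 higher in libraries labelled knockout (median -0.61), where 16.5% of all genes were lower and 16.7% higher. In osteogenic medium 0 of the 23 passed, where 9.09% of all genes did. The immunoproteasome subunits Psmb8 (-1.10, adjusted p = 0.00382), Psmb9 (-0.91, adjusted p = 0.00117) and Psmb10 (-0.69, adjusted p = 0.0214), the proteasome activator Psme1 (-0.65, adjusted p = 0.00438), the loading factor Tapbp (-0.96, adjusted p = 0.0267) and the lipid-presenting Cd1d1 (-1.59, adjusted p = 0.00552) fell, and the metabolite-presenting Mr1, at 0.34 (adjusted p = 0.0213), was the one that rose. Psmb8 was at 40.0, 18.9 and 31.2 FPKM in adipogenic control libraries and at 15.1, 10.8 and 13.04 FPKM in libraries labelled knockout, without overlap. Tapbp was at 138, 54.4 and 111 FPKM against 63.0, 41.9 and 41.4 FPKM, with control library 2 again within the range of the libraries labelled knockout. The transactivator Nlrc5, picked after its values were seen, was at 16.8, 6.11 and 12.3 FPKM in control and at 6.37, 7.37 and 6.64 FPKM in libraries labelled knockout, and did not pass. Without adipogenic control library 2 and library 1 labelled knockout 22 of the 23 were lower and 1 higher, against 26.7% and 25.3% of all genes. With one sum of FPKM per library 9 were lower and 1 higher, where 900 and 3252 of all 12871 genes were.

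The interferon gamma pathway showed the same split among libraries. The cytokine gene Ifng was listed at 0 in all 12 libraries. Of 10 pathway genes tested, 6 were lower and 1 higher in libraries labelled knockout in adipogenic medium (median -0.45), against 16.5% and 16.7% of all genes. Without the 2 libraries named above 8 were lower and 1 higher, against 26.7% and 25.3%. With one sum of FPKM per library 4 were lower and 2 higher, where 900 and 3252 of all 12871 genes were. With a replicate block 4 were lower and 1 higher, where 1962 and 1927 of all genes were. Without library 1 labelled knockout alone 4 were also lower and 1 higher, where 1873 and 1970 of all genes were. The GTPase gene Gbp2 was at 72.4, 13.6 and 58.3 FPKM in control and at 14.2, 6.16 and 5.90 FPKM in libraries labelled knockout, a fall of 2.14 on the log2(FPKM + 1) scale (adjusted p = 0.0114). Its adipogenic control libraries 1 and 3 stood far above the rest, and control library 2 lay within the range of the libraries labelled knockout. Irf1 (-0.65), Irf8 (-0.46) and the feedback inhibitor Socs1 (-0.91) also fell, and the receptor gene Ifngr1 (0.28, adjusted p = 0.0138) rose. In osteogenic medium 0 of the 10 were higher and 2 lower, where 636 and 534 of all 12871 genes were. The 2 lower genes were Ifngr1 (-0.44, adjusted p = 0.00443) and Irf2 (-0.40, adjusted p = 0.0229).

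**Figure D5:**
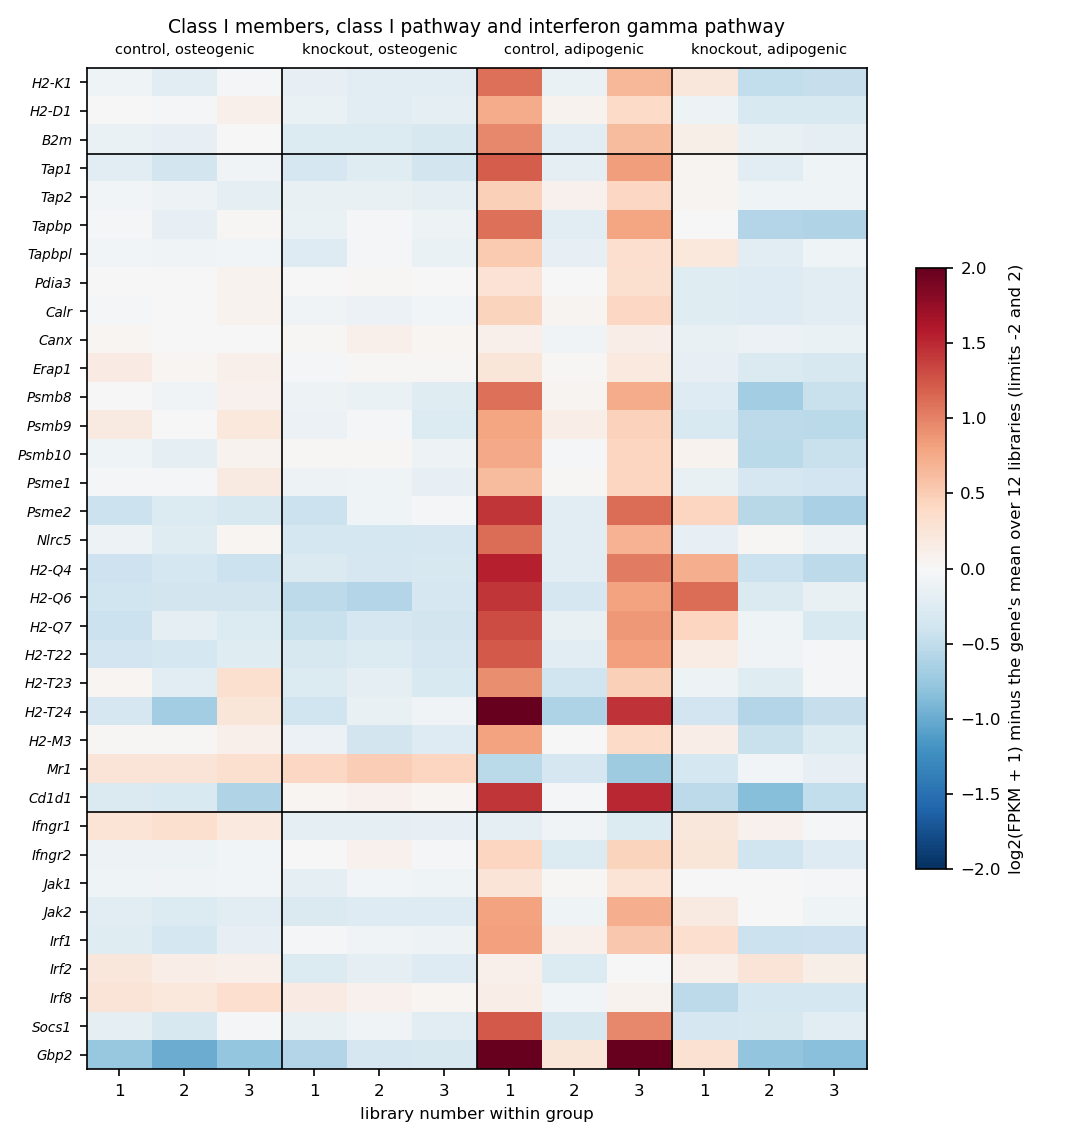
Level of the 3 class I genes (top), the 23 tested genes of the class I route (middle) and 9 interferon gamma pathway genes (bottom) in the 12 libraries, as log2(FPKM + 1) minus the mean of the gene over all libraries; red is above and blue below that mean. Most rows are red in adipogenic control libraries 1 and 3 and near or below the mean in control library 2, where H2-K1 was at 226 FPKM.

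Most macrophage markers were lower in the same libraries as the class I and interferon genes. Adgre1, which encodes a surface marker of mature macrophages, was at 1171, 227 and 1136 FPKM in adipogenic control libraries 1, 2 and 3 and at 255, 129.6 and 127 FPKM in libraries labelled knockout. Over all 12 macrophage markers 7 fell and 2 rose in libraries labelled knockout in adipogenic medium (median -1.005), against 16.5% and 16.7% of all genes, and 8 fell and 4 rose without the 2 libraries named above, against 26.7% and 25.3%. The 2 that rose were the complement genes C1qa (0.67, adjusted p = 0.000518) and C1qb (0.36, adjusted p = 0.00709), named here after their values were seen, while Lyz2 fell by 1.28 (adjusted p = 0.00991). The part of macrophages in the MHC result was not tested.

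The remaining class II route did not stand out from all genes by its counts. Of 22 listed genes 18 were tested, and 3 were higher and 3 lower in libraries labelled knockout in adipogenic medium (median 0.02), against 16.7% and 16.5% of all genes, with 5 higher and 4 lower without the 2 libraries named above, against 25.3% and 26.7%. The costimulatory gene Cd80 rose by 0.85 (adjusted p = 6.50e-06) and the thiol reductase gene Ifi30 by 0.38 (adjusted p = 0.0189). March1 (Marchf1), a ubiquitin ligase that removes class II from the surface, fell by 1.58 (adjusted p = 0.00362) and the costimulatory receptor gene Cd40 fell by 1.22 (adjusted p = 0.0416). Of the factors that assemble on class II promoters with Ciita, Rfxap rose by 0.21 (adjusted p = 0.0315) and Creb1 fell by 0.27 (adjusted p = 0.00394). March1 was at 15.6, 4.95 and 13.9 FPKM in control and at 2.68, 3.27 and 2.496 FPKM in libraries labelled knockout, so the groups did not overlap although control library 2 was far below the others. In osteogenic medium 1 of the 18 was higher and 3 were lower, where 636 and 534 of all 12871 genes were. The higher gene was Ifi30 (0.39, adjusted p = 0.0431). The lower ones were the cathepsin gene Ctss (-0.37, adjusted p = 0.00898), Nfya (-0.34, adjusted p = 0.0271) and Rfxap (-0.27, adjusted p = 0.0333). The DO chain H2-Oa and H2-Eb2 were above 0 only in adipogenic control library 3, at 0.141 and 0.0279 FPKM.

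By the correlation of log2(FPKM + 1) over the 12 libraries, the genes most like Cd74 were Kcnd1 (Pearson's r = 0.973), Gstt1 (r = 0.959), Psmd3 (r = 0.943), Pfn1 (r = 0.937) and Bag6 (r = 0.928). Those most like H2-K1 included Nab1 (r = 0.981), Sestd1 (r = 0.980), Syk (r = 0.978) and Lcp2 (r = 0.978), of which Syk and Lcp2 encode signalling proteins of blood cells. The 12 points share 4 groups and the libraries that stand apart, so these values describe the pattern and are not tests. No gene was common to both lists of 5: the profile of Cd74 was high in all 3 adipogenic control libraries and that of H2-K1 in 2 of them.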

How the data were processed

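Bone marrow MSCs of control (Chd7fl/fl) and knockout (Prx1-cre;Chd7fl/fl) mice were induced in osteogenic or adipogenic medium and profiled by bulk RNA-seq, and the submitters' labels gave 4 groups of 3 libraries. Nothing states that libraries came from separate mice, so p-values measure only the spread between these samples. No 2 libraries agreed within sampling noise (chi-square per degree of freedom of at least 2.63).

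The authors deposited 1 table of FPKM with a column per library and 54532 Ensembl genes, and no column was left unmapped. The submitters' processing notes name Bowtie 0.12.2 and mm9, whereas the paper lists FastQC 0.11.5, the FASTX toolkit 0.0.13, HISAT2 2.0.4 and Ballgown 3.4.0, with a NEBNext Ultra kit and an Illumina HiSeq 2500. The 2 accounts conflict. The annotation and the use of strand are not given in the sources used here. Dividing FPKM by the worth of 1 fragment over each gene's exons gave totals of 17496323 to 21099475 fragments (98.2% to 98.4% of low values whole within 0.02 fragments, 4% by chance), which covers counting error only.

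Symbols and coordinates came from GENCODE M21 (GRCm38), matched for 54409 genes, and upstream sequences from RefSeq (GRCm38.p6). Log2(FPKM + 1) was fitted in R 4.3.3 with limma 3.58.1, with 1 mean per group and a prior variance that follows the level, and p-values were adjusted by Benjamini-Hochberg for 12871 genes at 1 FPKM or more in at least 3 libraries. H2-Aa and Ciita, below this, were compared with exact permutation tests (scipy 1.17.1). On simulated data of the adipogenic comparison with 12871 genes, 169 of 200 genes changed by a log2 of 1 were called, with 11 false calls. The simulated noise was independent between libraries and had the same spread in all groups, with no library standing apart. These counts therefore do not give the rate of false calls in the adipogenic libraries themselves. Figures were drawn with matplotlib 3.10.9.

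The genes, lists and alternatives were chosen with earlier results of these data known. The genes named are the 10 MHC genes, Chd7, up to 6 genes per list with the largest change among those that passed in each comparison of genotypes, listed genes whose absence is given, defining markers, and the 5 genes most like Cd74 and H2-K1. Some genes that this rule selects are not reported here. Alternatives tried were testing without a filter, a pseudocount of 0.1, 2 scalings, no trend, voom, only the libraries compared, a replicate block, and each library left out. Leaving out adipogenic control library 2 and library 1 labelled knockout together was chosen after seeing the data.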

Additional observations from a re-analysis of the deposited data

Results flagged for a closer look

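The effect of genotype on Cd74 differed between adipogenic and osteogenic medium by -1.17 on the log2(FPKM + 1) scale (limma interaction, adjusted p = 0.00480, 95% interval -1.65 to -0.69). It was singled out because the difference between the media was itself tested and passed: all 3 libraries labelled knockout were below all 3 controls in adipogenic medium, and the genotypes overlapped in osteogenic medium. The adjusted p of this difference was 0.00107 to 0.0154 over the 12 fits that left out 1 library.

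For H2-Ab1 the same test gave -0.80 (limma interaction, adjusted p = 0.0415, 95% interval -1.34 to -0.26), with all 3 libraries labelled knockout above the controls in osteogenic medium and an overlap in adipogenic medium. Its adjusted p was 0.00352 to 0.0965 over the same fits and was under 0.05 in 3 of 12.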

How the results depend on the processing

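Same-numbered libraries did not deviate together in every pair (r across genes -0.29 to 0.47 between genotypes in adipogenic medium). Between media r was -0.056 to 0.086 in control cells and -0.020 to 0.030 in cells labelled knockout. These values cannot tell whether libraries of the same number share a mouse. A replicate block on these numbers gave 744 genes between genotypes in osteogenic and 3889 in adipogenic medium and 1943 between media in control cells, and left 1 MHC gene, H2-DMa, lower in adipogenic medium in cells labelled knockout. No other count of MHC genes changed under the block.

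Between genotypes in osteogenic medium the 1170 genes became 526 with one sum of FPKM per library and 3418 when only the libraries compared were fitted, which then called 1 MHC gene higher (H2-Ab1) and 2 lower (H2-D1 and B2m). In adipogenic medium the 4276 genes became 1671 in such a fit, with 0 MHC genes higher and 1 lower, and in control cells the 2935 genes between media became 490, with 1 higher and 1 lower. Without adipogenic control library 2 and library 1 labelled knockout, 6692 genes passed between genotypes in adipogenic medium. Of these 3260 were higher and 3432 lower (2 and 5 MHC genes). The interaction gave 5902, 2796 higher and 3106 lower (1 and 6 MHC genes). Between media there were 6466 in control cells, 3322 higher and 3144 lower (6 and 2 MHC genes). In cells labelled knockout there were 5463, 2598 higher and 2865 lower (0 and 2 MHC genes). The interaction of H2-Ab1 was lost, leaving 1 gene lower, without a filter, with one sum per library and with voom. The fall of DM chains in cells labelled knockout was left for 1 gene without a filter, without the trend and with voom, and for 0 with one sum per library. The fall of H2-K1 between genotypes in adipogenic medium did not pass without a filter, with one sum per library or without the trend. The cause was not tested.

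Leaving out 1 library gave 532 to 2854 genes between genotypes in osteogenic medium (0 to 1 MHC genes higher, 0 lower). In adipogenic medium it gave 2791 to 6569 (1 to 2 higher, 2 to 5 lower), and for the interaction 1798 to 5434 (0 to 1 higher, 1 to 5 lower). Between media the counts were 1361 to 6156 in control cells (2 to 6 higher, 2 lower) and 2500 to 5466 in cells labelled knockout (0 higher, 0 to 2 lower). The highest of these 5 counts of genes each came from leaving out adipogenic control library 2. That fit had 3123 genes higher and 3446 lower between genotypes in adipogenic medium (2 and 5 MHC genes). It had 2539 and 2895 for the interaction (1 and 5 MHC genes) and 3155 and 3001 between media in control cells (6 and 2).

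Signs turned only for genes that did not pass. H2-Eb1 between genotypes in adipogenic medium ranged from -0.16 to 0.10 over left-out libraries and was -0.28 without the pair. Between media in cells labelled knockout H2-Ab1 ranged from -0.034 to 0.15 and was -0.032 without the pair, H2-K1 ranged from -0.28 to 0.077, and with one sum per library H2-K1 was 0.017 and H2-D1 0.014. The values of Ciita, at about 2 to 11 fragments per library, and of H2-Aa, at about 6 to 22, rest on few fragments.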
